A study of Sus scrofa with 2 samples.

Results

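Cholesterol supply to the pig ovary was examined through 5 genes, MSMO1, SCP2, SCARB1, NPC2 and APOA1, which act in making, taking up and carrying cholesterol. They were chosen by name with earlier results of these data known, so comparisons with all genes describe them and test nothing. The probes of the 5 genes were those whose transcript accession belongs to the gene in the pig RefSeq annotation. This gave 12 of the 43597 probes on the array and 5 of the 2459 genes that could be named in this way. RNA came from ovarian tissue of conventional pigs (Yorkshire sows) and of minipigs (Midget pigs) taken at day 15 after estrus, when the corpora lutea regress, and these were cut away before extraction. All animals were females, no treatment is named, and the methods give both breeds the same age and the same minimum of completed cycles. Each breed was measured on 1 single-colour Agilent array. The methods name several animals of each breed, and pooling of RNA is not described in the sources used here.

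Steroid hormones are made from cholesterol, so the steroid-producing cells of the ovary, above all those of the corpus luteum and the theca, need a steady supply of it. These cells build cholesterol from acetate in the endoplasmic reticulum, take it from circulating lipoproteins through receptors at the cell surface, and release it from lysosomes and lipid droplets. Sterol carrier and transfer proteins then bring it to the mitochondria, where side chain cleavage starts steroid synthesis. Low density and high density lipoproteins can both serve as its source.

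A single array stood for each breed, so differences could not be set against a spread between animals, no test was possible, and the values describe these 2 arrays. Between 85.2% and 88.1% of the probes were well above background, and no spot was saturated. Levels are given as the processed intensity of a spot, in arbitrary units, and on the log2 scale relative to the 75th percentile of the same array. The brightness of a spot also depends on its probe, so levels were compared between the arrays and not between probes. Repeated spots of 42 probes gave the only technical spread, an SD of 0.25 for the log2 difference between 2 single spots. This SD covers the spots and not the animals. The breed labels of the arrays were in conflict. A table of log2 values that the authors also deposited carries the values of the array labelled conventional pig under the minipig label and the reverse, for 5613 of its 5617 probes within 1e-04 and for the others within 0.025. All values here follow the labels of the scanner files, so "in the conventional pig" and "in the minipig" stand for the arrays that carry those labels there, and every log2 difference is conventional pig minus minipig. Taking the labels from the table instead turns each sign.

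Transcripts of all 5 genes were brighter in the conventional pig. The log2 difference was 4.52 for SCP2, 3.82 for MSMO1, 2.46 for SCARB1, 1.16 for NPC2 and 0.76 for APOA1, each the median over the probes of the gene. All 12 probes were well above background on each of the arrays, and all 12 were higher in the conventional pig, 10 of them at least 2-fold. The same held for 7.48% of all 38883 probes that gave a difference or a bound, while 8.94% were at least 2-fold higher in the minipig, 16.4% in all. At the level of genes, 4 of the 5 were at least 2-fold higher in the conventional pig and 0 in the minipig. Of the 2363 named genes with a value, 11.7% reached 2-fold toward the conventional pig and 7.96% toward the minipig, 19.7% in all, and after median centring the 2 shares were 15.4% and 5.93%. The median difference over all named genes was 0.04, with 1240 higher in the conventional pig and 1123 in the minipig. In the order of the differences, the gaps between neighbouring genes were 0.70 from SCP2 to MSMO1, 1.36 from MSMO1 to SCARB1 and 1.30 from SCARB1 to NPC2. These exceeded 0.36, the SD that spot noise gives to a gap between 2 single-spot differences, which leaves out the spread between probes of a gene. Under normexp background correction, however, SCP2 (4.02) and MSMO1 (3.81) were only 0.20 apart, less than this SD. The gap of 0.41 from NPC2 to APOA1 was close to it, and the nearest probes of these 2 genes were 0.22 apart.

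**Figure D1:**
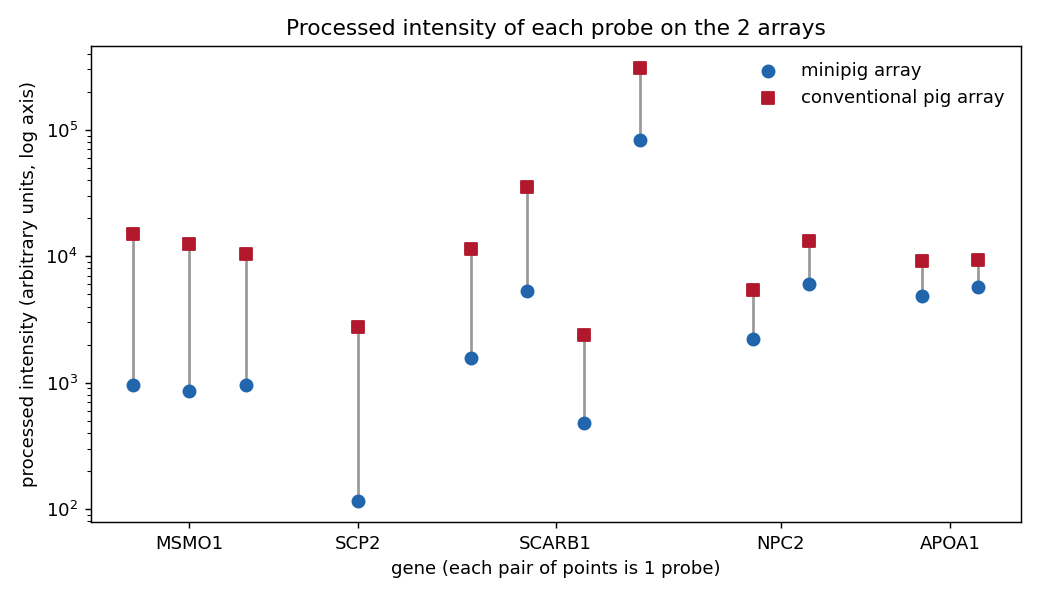
Processed intensity (arbitrary units, log axis) of each probe of MSMO1, SCP2, SCARB1, NPC2 and APOA1 on the minipig array (blue circles) and the conventional pig array (red squares), with a grey line joining the 2 values of a probe. The conventional pig value is the upper one for all 12 probes, and the distance is greatest for the SCP2 probe, 117 against 2780, and smallest for an APOA1 probe, 5708 against 9377.

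MSMO1 encodes methylsterol monooxygenase, an enzyme of the endoplasmic reticulum that removes methyl groups from sterol intermediates formed after lanosterol. Its 3 probes had intensities of 14867, 12590 and 10463 in the conventional pig. On the minipig array the same probes, in the same order, had 958, 858 and 964. The log2 differences were 3.90, 3.82 and 3.39, or 10.5-fold to 15.0-fold. All 3 probes therefore lay more than 10-fold higher in the conventional pig, and their SD of 0.28 was close to the spread between repeated spots. Of the 36659 probes flagged as well above background on each array, 23, 25 and 63 had larger differences than these 3 probes.

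Of 21 listed enzymes of cholesterol synthesis, MSMO1 included, 4 had a value and the rest had no matched probe. All 4 were at least 2-fold higher in the conventional pig, with a median log2 difference of 2.93. SQLE, the epoxidase that acts on squalene, had a difference of 3.08, and the lowest of its 3 probes gave 2.16. CYP51, the lanosterol demethylase whose product leads to the substrate of MSMO1, had 2.78 over 4 probes, from 2.71 to 3.17. NSDHL, which works with MSMO1 in the removal of methyl groups, had the smallest difference of the 4, at 1.84 with probes at 1.65 and 2.02. Each of the 12 probes of these enzymes was more than 2-fold higher in the conventional pig.

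The few measured genes from the list of regulators of cholesterol metabolism did not show this pattern. Of 11 listed, 4 had a value, 2 on each side, with a median of -0.19. SREBF2, SCAP, INSIG1, MBTPS1 and MBTPS2, also on the list, had no matched probe, so the regulation of sterol synthesis was largely not measured. SREBF1, which encodes a transcription factor of lipid synthesis, had a log2 difference of 0.49, and INSIG2, which encodes a protein that holds these factors in the endoplasmic reticulum, had -0.42. NR1H3, the oxysterol receptor LXR alpha, lay at 0.03, a sign that turned under normexp background correction, quantile and loess normalization. MYLIP, which encodes a ubiquitin ligase that marks the low density lipoprotein receptor for degradation, was the only gene of these 4 past 2-fold. Its single probe had an intensity of 151 in the conventional pig and 657 in the minipig, a log2 difference of -2.17.

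SCARB1 encodes scavenger receptor class B type I, the receptor through which steroid-producing cells take cholesteryl esters from high density lipoprotein. Its 4 probes had intensities of 11365, 35558, 2363 and 310351 in the conventional pig. On the minipig array they had 1579, 5351, 480 and 83071 in the same order. The log2 differences were 2.79, 2.68, 2.25 and 1.85, so the receptor transcript was 3.60-fold to 6.94-fold higher in the conventional pig, depending on the probe. The brightest probe had the smallest difference, and it was not marked as saturated on either array. The SD between the 4 probes was 0.43 on the log2 scale, larger than the 0.25 of repeated spots.

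Other genes of uptake were measured in small number. Of 9 listed, 3 had a value, and SCARB1 was the only one past 2-fold. CD36, a related scavenger receptor that also binds fatty acids, had a log2 difference of 0.43, but its 4 probes ran from -0.08 to 0.91. LRPAP1, the chaperone of receptors of the low density lipoprotein receptor family, had 0.55 from 1 probe. The low density lipoprotein receptor itself had no matched probe and was not analysed here.

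NPC2 encodes a soluble lysosomal protein that binds cholesterol freed from lipoproteins and hands it to the membrane protein NPC1. Its 2 probes had intensities of 5420 and 13160 in the conventional pig and of 2198 and 6020 in the minipig. The log2 differences were 1.25 and 1.08, or 2.38-fold and 2.11-fold higher in the conventional pig. Both were just past 2-fold, and the gene was not under quantile normalization (0.82) or loess normalization (0.95). NPC1 had a difference of 1.57 from 1 probe, with intensities of 4060 and 1317. LIPA, the lysosomal acid lipase that splits the cholesteryl esters of ingested lipoproteins, had 1.30 from 1 probe, with 2521 and 988. The 3 lysosomal genes of this route were thus all between 2-fold and 3-fold higher in the conventional pig.

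SCP2 encodes sterol carrier protein 2, a protein of peroxisomes and cytosol that binds sterols and other lipids and moves them between membranes. It was measured by 1 probe, with an intensity of 2780 in the conventional pig and 117 in the minipig. Relative to the 75th percentile of each array these are log2 levels of 2.44 and -2.08. The probe was dim in the minipig but still well above background there. The log2 difference of 4.52, or 22.9-fold, was exceeded by 9 of the 36659 probes and by 3 of the 2363 genes. Under normexp background correction, which acts most on dim spots, it was 4.02. No second probe of the gene was available to check it.

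The list of intracellular cholesterol transport held 18 genes, of which 10 had a value. Of these, 7 were at least 2-fold higher in the conventional pig and 0 in the minipig, with a median log2 difference of 1.42. STARD4, a cytosolic protein that ferries sterols between membranes, had 3.27 from 1 probe, with intensities of 3473 and 348. DBI, which encodes the acyl-CoA binding protein, a ligand of the mitochondrial protein TSPO, had 2.20, with both probes above 2. ANXA2, which encodes a membrane-binding annexin of endosomes and the cell surface, had 1.53. The remaining genes lay within 2-fold on the minipig side. These were STARD3, a sterol transfer protein of late endosomes (-0.35), CAV1, the coat protein of caveolae (-0.29), and TSPO (-0.24). Genes of cholesteryl esters and lipid droplets, 4 of 8 with a value, included 0 past 2-fold. LIPE, the hormone-sensitive lipase that frees stored cholesterol, had 0.71 with probes from 0.31 to 1.44. PLIN2, the droplet coat protein, had intensities of 514 and 496, and its sign depended on the scaling.

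**Figure D2:**
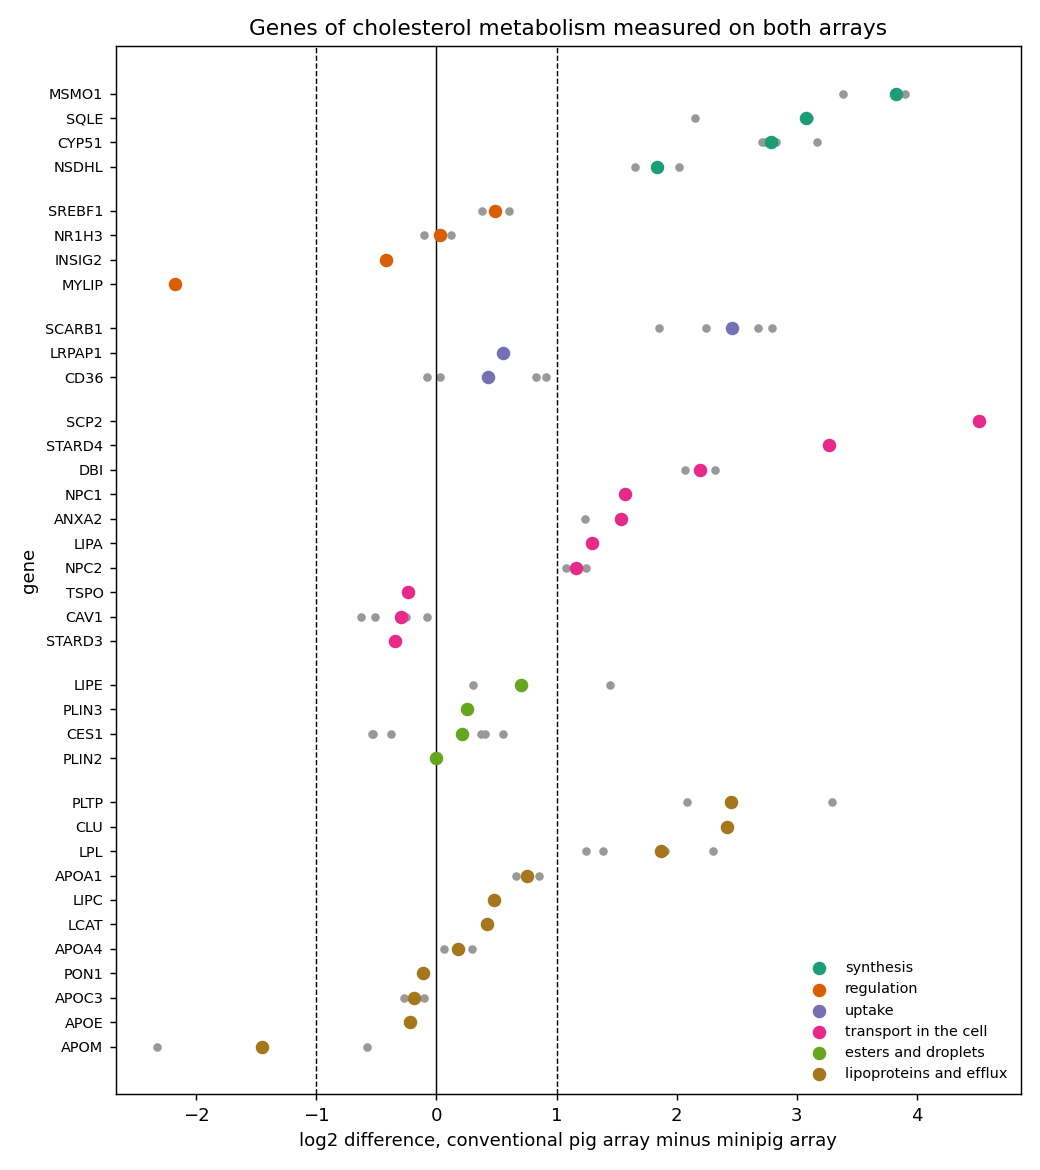
Log2 difference, conventional pig array minus minipig array, of 36 genes of cholesterol metabolism that had a value, grouped by role. Large coloured points are the median over the probes of a gene, small grey points are single probes, and dashed lines mark 2-fold. All 4 synthesis genes and 7 of the 10 genes of transport in the cell lie beyond 2-fold on the conventional pig side, while MYLIP and APOM lie beyond it on the minipig side.

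APOA1 encodes apolipoprotein A-I, the main protein of high density lipoprotein, which accepts cholesterol from cells and is recognised by the receptor that SCARB1 encodes. Liver and intestine are its main sources. Its 2 probes had intensities of 9116 and 9377 in the conventional pig and of 4871 and 5708 in the minipig. The log2 differences were 0.85 and 0.66, or 1.80-fold and 1.58-fold. APOA1 was therefore the only one of the 5 genes short of 2-fold, and 422 of the 2363 named genes had a larger difference. Both differences exceeded the technical SD of 0.25, and the gene's value was 0.38 after quantile normalization, the lowest of the settings tried. APOC3 and APOA4, which lie next to APOA1 in the annotation and encode other plasma apolipoproteins, had differences of -0.19 and 0.18. Markers of hepatocytes were set beside APOA1. Of 12 listed, 6 had a value, 3 higher on each array, with a median of -0.03. Their summed level was 1.82 in the conventional pig and 1.37 in the minipig, in units of the 75th percentile. HP, the plasma haptoglobin, was the only one past 2-fold, at 1.06, though not after normexp correction. The sums without HP were 0.716 and 0.840, and ALB, which encodes albumin, lay at 0.13. The part of such RNA in the APOA1 value was not tested.

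Lipoprotein and efflux genes as a group differed in direction. Of 21 listed, 11 had a value, 3 at least 2-fold higher in the conventional pig and 1 in the minipig, and their median log2 difference was 0.42. PLTP, which encodes the phospholipid transfer protein of plasma, had 2.45 over 3 probes from 2.09 to 3.29. CLU, which encodes clusterin or apolipoprotein J, had 2.42 from 1 probe, with intensities of 25279 and 4568. LPL, the lipase that frees fatty acids from circulating lipoproteins, had 1.87, and its 5 probes, all dim on the minipig array, ran from 1.25 to 2.30. After normexp correction LPL had 1.41 and PLTP 2.01. APOE, the ligand of receptors of the low density lipoprotein receptor family, had -0.22 from 1 probe. APOM, which encodes an apolipoprotein that carries sphingosine-1-phosphate, had -1.45, but its 2 probes disagreed in size, at -2.32 and -0.58, and the value was -0.92 after normexp correction.

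Over the 6 lists together, 36 of 88 genes had a value, so the lists stand for those genes and not for the whole pathways. Of the 36, 15 were at least 2-fold higher in the conventional pig and 2 in the minipig, against 11.7% and 7.96% of all named genes. Leaving out the 5 genes described here, the numbers were 11 and 2 of 31, with a median log2 difference of 0.43. The lists were also chosen with earlier results of these data known, so these shares are a description and no test.

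Cholesterol enters steroid synthesis through STAR, which moves it into the mitochondrion, and CYP11A1, the side chain cleavage enzyme. STAR had a log2 difference of 3.07 over 6 probes and CYP11A1 of 2.63 over 3 probes. HSD3B1, which makes progesterone, had 3.11. FDX1, the electron donor of CYP11A1, had 0.63, with probes from 0.53 to 0.83. Several enzymes further along steroid synthesis, named after their values were seen, were higher in the minipig. CYP17A1, which leads to androgens, had -1.74, with probes at -2.49 and -0.99. HSD17B1, which makes estradiol from estrone, had -2.96 from 1 probe. The other HSD17B genes with a value, HSD17B4 and HSD17B8, had 1.13 and -0.41. The aromatase genes CYP19A2 and CYP19A3 had -4.22 from 1 probe and -4.11 from 2 probes, while CYP19A1 had 0.09. Near-identical copies may share signal.

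Markers of the cell types in the tissue also differed between the arrays. Luteal markers, 10 of 10 with a value, had 4 genes at least 2-fold higher in the conventional pig and 0 in the minipig. The 4 were STAR, HSD3B1, CYP11A1 and PTGFR, the receptor of the luteolytic prostaglandin, at 2.48. OXT (0.33), PRLR (-0.55), PGR (0.36), RLN2 (0.45), AKR1C1 (0.36) and LHCGR (-0.62) were within 2-fold. The median over the list was 0.40. The summed level of the luteal markers was 313.7 in the conventional pig and 117 in the minipig, in units of the 75th percentile, and such a sum weights genes by the brightness of their probes. STAR made up 145.8 and 16.2 of it, and without STAR the sums were 167.9 and 101.0. Granulosa markers, 8 of 11 with a value, had 6 genes at least 2-fold higher in the minipig. Among them, FSHR had -3.63 from 1 probe and INHA had -2.61. AMH (-1.03), SERPINE2 (-1.03) and GATA4 (-1.13, 1 probe) were just past 2-fold, so that after median centring the count was 3. The probes of AMH ran from -2.22 to -0.09, and those of INHBA lay at -3.91 and 0.37. CYP19A1 (0.09, probes at -0.34 and 0.52) and FST (-0.08) were within 2-fold, the sign of FST turning under median centring. The granulosa sums were 54.8 and 117 in the same order, with SERPINE2 as 38.3 and 88.0 of them. Theca markers, 5 of 7 with a value, had INSL3 at -3.76 and CYP17A1 at -1.74 on the minipig side, and CYP11A1 on the other. By its brightest probe CYP17A1 was within 2-fold. LHCGR (-0.62) and ACTA2 (0.10) were within 2-fold, the sign of ACTA2 turning under quantile and loess normalization. The theca sums were 124.8 and 157, of which ACTA2, a gene of smooth muscle, was 71.8 and 67.8. Oocyte markers, 6 of 12 with a value, were all higher in the minipig by their medians, 3 of them past 2-fold, from MOS at -1.75 to BMP15 at -0.18. The probes of ZP2 lay at -1.96 and 0.46 and those of BMP15 at -0.42 and 0.05. The sign of BMP15 turned under normexp correction. Markers of follicles and oocytes were well above background on both arrays. However, 85.2% and 88.1% of all probes passed this flag, and so did 16 of the 19 ALB probes on both arrays. Passing it therefore does not identify the tissue. Luteal cells are known for high SCARB1 and SCP2, and the part of any remaining luteal tissue in these differences was not tested. In a bulk sample, more cells of a type and more RNA per cell cannot be told apart.

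Of other cell types, macrophage markers (6 of 12) had 4 genes higher in the conventional pig and 2, CD163 (-0.25) and LYZ (-0.20), in the minipig. CD14 was past 2-fold at 1.04, though not after normexp correction, and the sign of TYROBP (0.10) turned under quantile normalization. The median over the macrophage list was 0.19, with summed levels of 11.1 and 9.20. Endothelial markers (4 of 8) were all higher in the conventional pig, from 0.36 for CDH5 to 0.95 for FLT1, with sums of 5.86 and 3.75. Adipocyte markers (4 of 6) included 0 past 2-fold, with a median of -0.30 and sums of 2.62 and 2.51, and PLIN1 and CIDEC lacked the flag for being well above background on either array. The stromal marker DCN had -0.36, with summed levels of 35.6 and 46.9, and oviduct epithelium (3 of 6) had 0 past 2-fold, with sums of 0.963 and 1.29. The 6 erythroid markers had no matched probe.

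**Figure D3:**
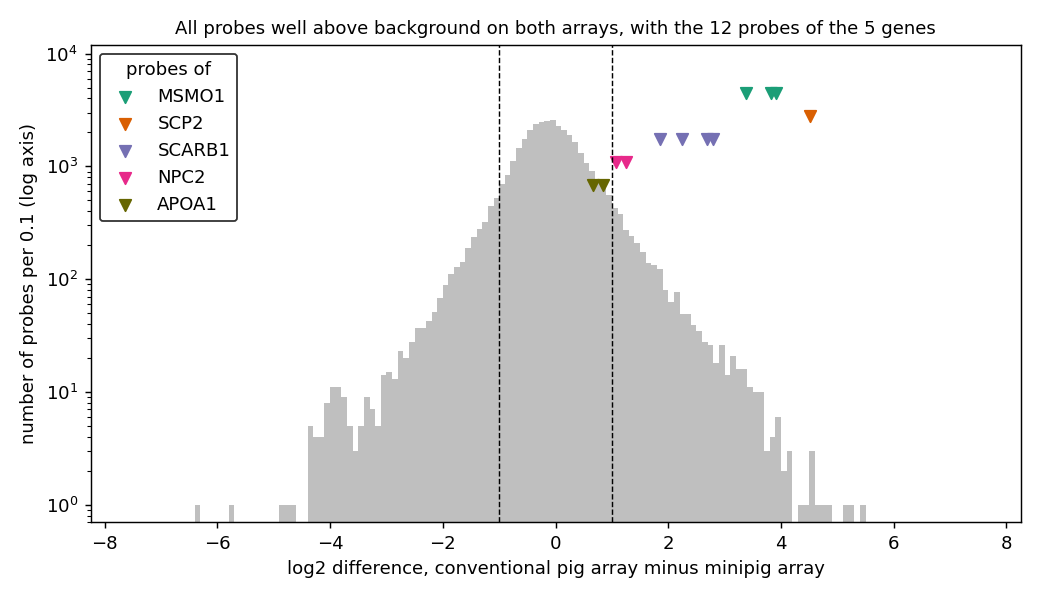
Histogram of the log2 difference, conventional pig array minus minipig array, of the 36659 probes that passed the background flag on both arrays (grey, number of probes per bin of 0.1 on a log axis), with triangles for the 12 probes of the 5 genes, whose height has no meaning. Dashed lines mark 2-fold, and 10 triangles lie beyond the right one, while the 2 of APOA1, at 0.66 and 0.85, lie inside it.

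The position of the 12 probes within all probes followed the order of the genes. The probe of SCP2 had a larger difference than 99.97% of the 36659 probes flagged as well above background on each array. Of these probes, those of MSMO1 exceeded 99.83% to 99.93%, those of SCARB1 98.2% to 99.5%, those of NPC2 93.5% and 95.1%, and those of APOA1 86.5% and 90.2%. The middle of all probes lay between a 25th percentile of -0.48 and a 75th percentile of 0.32, and all 12 probes were above that range.

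Among the 1160 genes with several probes that all passed the background flag on both arrays, the 2 with the nearest difference were sought for each gene. Over 2 arrays such likeness says only that the differences are alike in size. For MSMO1 they were FABP3, a fatty acid binding protein (3.82), and DHRS4, a short-chain dehydrogenase (3.95). DHRS4 and MT1A, a metallothionein (4.63), were nearest to SCP2. For SCARB1 they were S1PR5, a receptor of sphingosine-1-phosphate (2.47), and PLTP. HSPA13 and LOC780435, both at 1.16, were nearest to NPC2, and CLTC, the clathrin heavy chain, and LOC733637, both at 0.76, to APOA1.

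The direction of all 5 genes held under each scaling, under normexp correction and with the brightest probe. The lowest and highest values were 3.55 and 3.98 for MSMO1, 4.02 and 4.67 for SCP2, 1.85 and 2.62 for SCARB1, 0.82 and 1.32 for NPC2, and 0.38 and 0.91 for APOA1. Under each of these the 5 genes kept the same order. Median centring moved the median of all probes by 0.15 toward the conventional pig array, quantile and loess normalization each by 0.11. Quantile and loess normalization nonetheless lowered MSMO1, SCARB1, NPC2 and APOA1. APOA1 went from 0.76 to 0.38 and 0.53, while SCP2 stayed at 4.48 and 4.52.

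**Figure D4:**
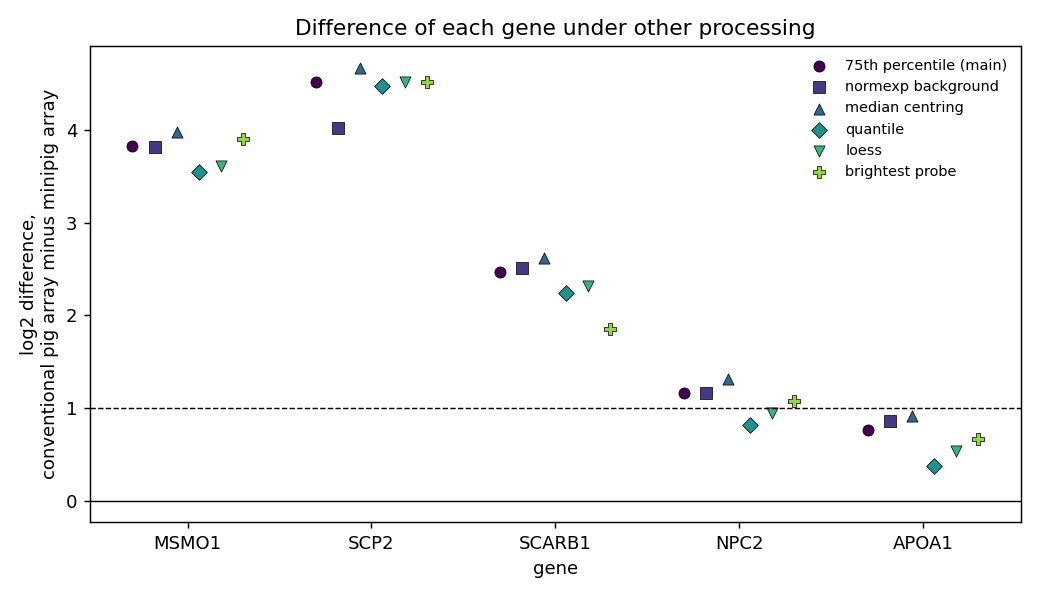
Log2 difference, conventional pig array minus minipig array, of each of the 5 genes under the main scaling and 5 other ways of processing, marked by shape and colour, with a dashed line at 2-fold. All values are above 0, and NPC2 crosses the line, from 1.16 under the main scaling to 0.82 under quantile normalization.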

How the data were processed

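The authors hybridised Cy3-labelled RNA to porcine Agilent arrays, 1 per breed on the same slide, and deposited the output of Agilent Feature Extraction 10.7.3.1 (version per the labels). Its processed intensity is corrected for background and spatial trend, with no step that makes the arrays comparable. A second file that the authors deposited gives log2 values of 5617 probes, each being the log2 processed intensity minus a constant per array (9.00 and 8.94), and its breed labels are exchanged. Its column medians are -0.93 (labelled minipig) and -0.66 (labelled conventional pig), and it lists differences of 2-fold or more, by the scanner labels 2694 probes higher in the conventional pig and 2923 in the minipig. Scale and centring were settled from the values, and the breed labels were taken from the scanner files.

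From the deposited intensities, control spots and outlier spots (10 in the conventional pig, 5 in the minipig) were left out, spots of the same probe were averaged as log2 values, and the 75th percentile of the array (513 and 494) was subtracted. For a probe well above background on 1 array only, the difference was a bound against the lowest such level of the other array. A gene's value is the median over its probes. Accessions were matched without versions to RefSeq (Sscrofa11.1), which named 5577 probes. A gene of the cholesterol lists is not reported here. The 5 genes and all lists were chosen with earlier results of these data known. Genes to name were the 5 genes, genes of the cholesterol lists, the 2 highest of each other list per array, and 2 genes nearest in difference to each of the 5. Further markers were named after their values were seen. The error Feature Extraction assigns to a log2 difference of these probes was 0.20 to 0.21. No p-value was computed. The scaling was tried on simulated arrays with spot noise only, where 200 probes changed, equally in both directions. Far more probes differed between the real arrays, so that trial does not cover them. Software was Python 3.11.15, numpy 2.4.6, pandas 2.3.3, statsmodels 0.14.6, matplotlib 3.10.9, R 4.3.3 and limma 3.58.1.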

Additional observations from a re-analysis of the deposited data

How the results depend on the processing

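Alternatives were normexp background correction (offset 50, on median spot signals, since mean signals were not used here), median centring, quantile and loess (span 0.3) normalization, keeping all dim probes, leaving out probes with a bound, the brightest probe, and the deposited log2 table. Adding probes by gene name was not run, because the scanner files used here hold no such column. A value counted as moved when it shifted by more than the technical SD of 0.25. Quantile normalization gave 3.55 for MSMO1, 0.82 for NPC2 and 0.38 for APOA1, normexp gave 4.02 for SCP2, and the brightest probe gave 1.85 for SCARB1. The table's own breed labels, an alternative added after seeing the data, gave -3.82 for MSMO1, -4.52 for SCP2, -2.46 for SCARB1 and -1.16 for NPC2, and APOA1 is not in the table. The cause of the exchanged labels was not tested. The number of the 5 genes past 2-fold was 4, or 3 under quantile and loess normalization. Of the 36 listed genes it was 17, or 16 under normexp, quantile and loess. The deposited table lists only differences of 2-fold or more, so its 18 listed genes were all past 2-fold by construction. Of the other 31 listed genes, 8 moved under quantile normalization, 4 under normexp, 5 with the brightest probe, 1 under loess and 0 under median centring. By the values of the deposited table, 12 stayed within the SD, while LIPE (1.44) and APOM (-2.33) moved. That table holds the same intensities minus a constant, so it is no separate check. No paired analysis was possible because there is 1 array per breed. The number of arrays limits the precision, and SCP2 rests on 1 probe that was dim on the minipig array.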
